A study of Rattus norvegicus with 12 samples.

Results

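Circular RNAs (circRNAs) are RNA rings without free ends, made when the spliceosome links a downstream splice site of a transcript to an upstream one. Because exonucleases need a free end, many circRNAs persist for a long time in cells, and brain tissue is known to be rich in them. Some can bind miRNAs or proteins, but for most of them no function is known. They are counted in RNA sequencing by the reads that cross the back-splice junction, the point where the ring is closed.

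The circRNAs described here are novel_circ_0022446, novel_circ_0021522 and novel_circ_0009704, measured in the paraventricular nucleus of the hypothalamus (PVN), the nucleus whose corticotropin-releasing hormone neurons drive the pituitary and adrenal stress response. They were chosen by identifier, 3 of the 21914 circRNAs in the deposited table, because each had counts in all 12 libraries and differed between groups of operated rats in tests on these same counts. Their differences between operated groups were therefore used to pick them, and these are given as a description from which no test result is drawn. Unadjusted p values printed for them describe only the choice and the standing of the 3 among other circRNAs. The table paired no identifier with a host gene, a position, a strand, a length or a sequence, so none of the 3 was placed in the genome, no sequence is shown, and the tissue could not be checked against marker genes.

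All rats were male Sprague–Dawley rats bought at 7 weeks of age, and every group was held in a restraint device. The control group (NC) had no operation and no needles. The hepatectomy group (HT) had about 20% of the left liver lobe removed under isoflurane and received no needles. The HT+EA group had the same operation with electroacupuncture, a current passed through needles on one side at the acupoints ST 36 and SP 6, given 24 h before the operation and again directly after it. The HT+SEA group had the operation and needles at the same points with no current. Tissue was taken 24 h after the last electroacupuncture. Each group had 3 libraries, and the study's methods say that brain samples came from different animals of the same batch without saying which rat gave which library, so the spread between libraries may hold technical as well as animal differences.

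The total count of a library over all listed circRNAs ran from 134903 in HT replicate 3 to 360524 in HT+EA replicate 2. HT replicate 3 also stood apart on the first principal component of log2 values, at -57.73 against -4.71 to 16.7 in the other 11 libraries, and values that rest on it are given with and without it. Levels are given as CPM, the usual scaling of counts to a common library total, here the total of the tested circRNAs after TMM scaling. Because these are tissue samples, fewer cells of a type and less RNA per cell cannot be told apart in any of the values.

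The level of novel_circ_0022446 was lowest in HT+EA. It was 342, 332 and 185 CPM in HT+EA replicates 1 to 3, from 64, 102 and 35 counts. In HT it was 652, 646 and 628 CPM, from 105, 138 and 77 counts. All HT+EA libraries thus lay below all HT libraries, and the HT libraries lay close together.

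In HT+SEA novel_circ_0022446 was at 503, 624 and 619 CPM. In NC it was at 456, 649 and 304 CPM. The HT+SEA libraries lay above all of HT+EA and just below all of HT, whereas the NC libraries spread over the ranges of the other groups, with replicate 2 beside HT and replicate 3 within HT+EA. The group means ranked HT (642 ± 12.6 CPM, SD, n = 3), HT+SEA (582 ± 68.2 CPM, SD, n = 3), NC (469.8 ± 173 CPM, SD, n = 3) and HT+EA (287 ± 88.0 CPM, SD, n = 3). HT and HT+SEA, neighbours in that order, did not overlap but differed by a log2 fold change of only -0.14 (SE 0.28), and NC overlapped with both HT+SEA and HT+EA.

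Between operated groups, the kind of comparison used to pick novel_circ_0022446, the log2 fold change of HT+EA against HT was -1.16 (SE 0.28), a level 2.23-fold lower. That of HT+EA against HT+SEA was -1.01 (SE 0.28), a level 2.02-fold lower. Leaving out any 1 library kept the first between -1.29 and -0.93 and the second between -1.14 and -0.78.

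The level of novel_circ_0021522 was lowest in HT+SEA, at 31.7, 31.8 and 29.5 CPM from 7, 5 and 5 counts. In HT it was 261, 337 and 130 CPM, from 42, 72 and 16 counts. In HT+EA it was 32.1, 319 and 58.2 CPM, from 6, 98 and 11 counts. The HT+EA libraries thus lay apart, with replicate 2 in the range of HT and replicates 1 and 3 near HT+SEA.

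In NC novel_circ_0021522 was at 208, 221 and 45.4 CPM, from 41, 44 and 10 counts, so that group was split as well. Ordered by level, 6 libraries lay between 29.5 and 58.2 CPM and the other 6 between 130 and 337 CPM, and the widest step between neighbouring libraries, 2.24-fold, was the one between these ranges. The 95% counting intervals of the libraries beside that step overlapped. They were 29.05 to 104 CPM in HT+EA replicate 3 and 74.6 to 212 CPM in HT replicate 3, the smallest library. The border between the ranges is therefore uncertain. The lower range held all of HT+SEA, 2 libraries of HT+EA and 1 of NC, and the upper range held all of HT. The mean of HT+EA, 137 ± 159 CPM (SD, n = 3), therefore describes none of its libraries, and the order of group means hides the spread within NC and HT+EA. The means of the other groups were 243 ± 104 CPM (SD, n = 3) in HT, 158 ± 97.9 CPM (SD, n = 3) in NC and 31.0 ± 1.34 CPM (SD, n = 3) in HT+SEA, and HT, NC and HT+EA, neighbours in the order of means, overlapped.

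Between operated groups, the kind of comparison used to pick novel_circ_0021522, its log2 fold change was -2.96 (SE 0.84) in HT+SEA against HT, a level 7.79-fold lower. In HT+EA against HT+SEA it was 2.18 (SE 0.84). The first stayed between -3.26 and -2.65 when any 1 library was left out. The second rested on HT+EA replicate 2 and was 0.53 (SE 0.74) without it. HT+EA against HT was -0.78 (SE 0.70) and became -2.43 (SE 0.66) without the same library. HT+EA replicate 2 was also the library with the largest total count, and the part of depth in its level was not tested.

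The level of novel_circ_0009704 was highest in HT+SEA, at 1261, 1051 and 860.5 CPM from 278, 165 and 146 counts. It was lowest in HT+EA, at 663, 521 and 508 CPM from 124, 160 and 96 counts. These groups were separated by 860.5 against 663 CPM at their nearest libraries.

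In HT novel_circ_0009704 was at 671, 679 and 1109 CPM, and in NC at 699, 695 and 881 CPM. The value of 1109 CPM belongs to HT replicate 3, the smallest library and the one set apart on the first principal component, and it lay within the range of HT+SEA, while the other HT libraries lay just above the highest HT+EA library. The means ranked HT+SEA (1057 ± 200.2 CPM, SD, n = 3), HT (819 ± 251 CPM, SD, n = 3), NC (758 ± 107 CPM, SD, n = 3) and HT+EA (564 ± 86.1 CPM, SD, n = 3). Without HT replicate 3 the mean of HT was 675 CPM (n = 2), below that of NC, so the order of HT and NC rested on that library. HT overlapped with both of its neighbours in that order, and HT+EA lay below the range of every other group. The gap to HT and NC was small, since the 95% counting interval of HT+EA replicate 1, 552 to 791 CPM, covered their nearest values, 671 and 695 CPM.

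Between operated groups, the kind of comparison used to pick novel_circ_0009704, HT+EA against HT+SEA had a log2 fold change of -0.91 (SE 0.22), a level 1.88-fold lower. This value stayed between -1.03 and -0.76 when any 1 library was left out. HT+EA against HT was -0.53 (SE 0.23), and without HT replicate 3 it was -0.26. HT+SEA against HT was 0.38 (SE 0.22), with overlapping groups, and without HT replicate 3 it was 0.64.

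**Figure D1:**
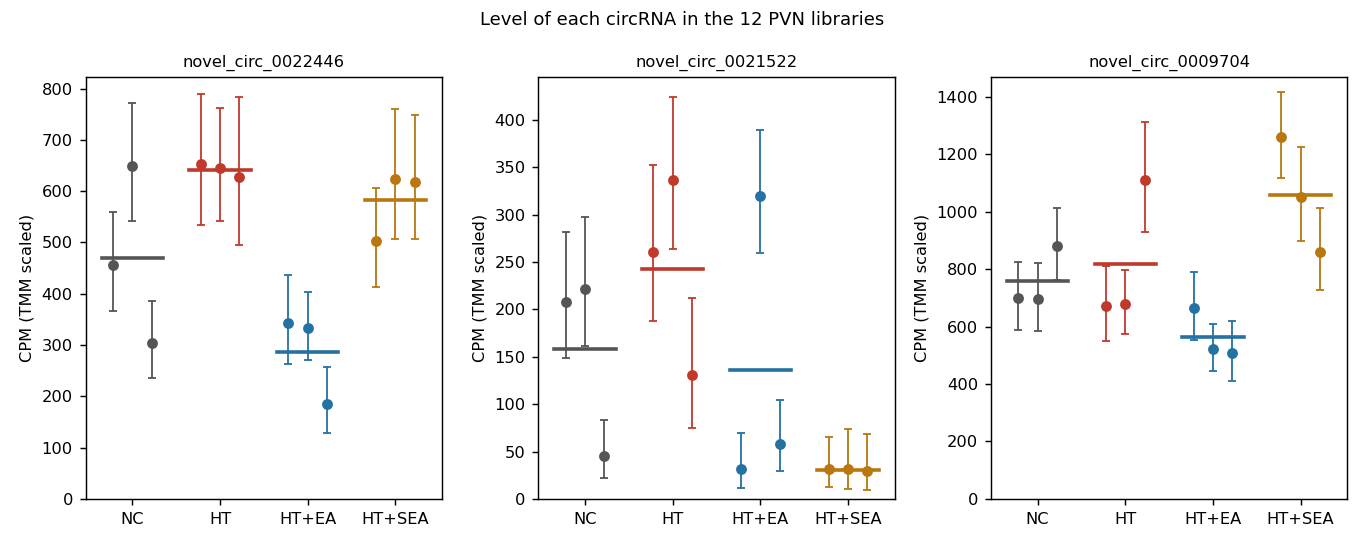
Level of each circRNA in CPM (linear axis from 0) in the 3 libraries of NC, HT, HT+EA and HT+SEA; points are libraries in the order of their replicate numbers, thin bars are exact 95% Clopper-Pearson intervals that cover counting error only, and thick lines are group means. The 3 HT+EA points of novel_circ_0022446 sit at 185 to 342 CPM, below every HT and HT+SEA point, whereas novel_circ_0021522 has 1 HT+EA point at 319 CPM and the other two at 32.1 and 58.2 CPM.

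In the comparisons between operated groups, all 3 circRNAs had groups that did not overlap in HT+EA against HT+SEA, beside 11.9% of the 4838 tested circRNAs, and 3 of 3 had an unadjusted p below 0.05, beside 3.89%. For novel_circ_0021522 the nearest libraries were almost level, at 32.1 CPM from 6 counts in HT+EA replicate 1 and 31.8 CPM from 5 counts in HT+SEA replicate 2, far inside the counting intervals of 11.8 to 69.8 and 10.3 to 74.3 CPM. In HT+EA against HT the groups of 2 of the 3 did not overlap (all tested 11.3%) and 2 had such a p (all tested 4.77%). In HT+SEA against HT the groups of 2 did not overlap (all tested 9.38%) and 1 had such a p (all tested 3.29%). Since these contrasts picked the 3 circRNAs, nothing is read from their counts. In HT+EA against HT+SEA the direction differed among them, with novel_circ_0022446 and novel_circ_0009704 lower in HT+EA and novel_circ_0021522 higher.

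The choice had no stated limit on p. Of the 3677 tested circRNAs with counts in all 12 libraries, 360 had an unadjusted edgeR p below 0.05 in at least 1 of the 3 contrasts between operated groups. Ordered by the smallest of those p values, novel_circ_0022446 was number 2 (0.00130), between novel_circ_0009702 (0.00130) and novel_circ_0025451 (0.00132). In the same order novel_circ_0009704 was number 4 (0.00142), just ahead of novel_circ_0029061 (0.00167), and novel_circ_0021522 was number 13 (0.00379), between novel_circ_0005920 (0.00315) and novel_circ_0003899 (0.00382). CircRNAs of like rank were thus not chosen, and the p values describe the choice and support no difference.

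The operated groups together were set against NC by averaging HT, HT+EA and HT+SEA. The choice of the 3 circRNAs did not use this comparison, although it needed counts in the NC libraries. HT+EA and HT+SEA also had needles, with current in HT+EA, so operation, needles and current cannot be told apart in this mean. Tests were two-sided with edgeR's quasi-likelihood method, with p adjusted by Benjamini-Hochberg over the 4838 tested circRNAs. The log2 fold change was 0.02 (SE 0.23, 95% interval -0.47 to 0.51, edgeR adjusted p = 0.9999) for novel_circ_0022446. It was 0.05 (SE 0.18, interval -0.34 to 0.45) for novel_circ_0009704 and -0.60 (SE 0.59, interval -1.88 to 0.67) for novel_circ_0021522, with the same adjusted p. The middle value of the 3 was 0.02, beside a median of -0.03 over all tested circRNAs. None of the 3 had an unadjusted p below 0.05, beside 2.89% of all tested. A difference of that mean from NC was not detectable in any of the 3. The mean averages groups that lay on opposite sides of NC, with HT+SEA above and HT+EA below for novel_circ_0022446 and novel_circ_0009704, so its interval bounds the change of no single group. Without NC replicate 3 the value of novel_circ_0022446 was -0.22 and without NC replicate 2 it was 0.34. That of novel_circ_0021522 was -1.16 without HT+EA replicate 2, with an unadjusted p below 0.05, and -0.27 without NC replicate 2.

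Each operated group was then set against NC. Differences from NC were not used in the choice, but it needed counts in the NC libraries too and used differences between the operated groups. These comparisons are thus tied to the choice, and they share the same 3 NC libraries. HT and NC both had no needles. No group had a sham operation, so anaesthesia, incision and removal of liver cannot be told apart. In HT against NC the log2 fold change was 0.45 (SE 0.28, 95% interval -0.15 to 1.05) for novel_circ_0022446 and 0.64 (SE 0.70, interval -0.88 to 2.17) for novel_circ_0021522. It was 0.10 (SE 0.22, interval -0.38 to 0.59) for novel_circ_0009704, and -0.17 without HT replicate 3. All 3 circRNAs had overlapping groups, beside 9.63% of tested circRNAs without overlap, and 0 of 3 had an unadjusted p below 0.05, beside 3.41%. Single libraries moved the size of 2 of these values. Without NC replicate 3 they were 0.21 for novel_circ_0022446 and 0.19 for novel_circ_0021522, and without NC replicate 2 they were 0.78 and 0.99. The value of novel_circ_0021522 was also 0.32 without HT replicate 2 and 0.92 without HT replicate 3. The unadjusted p of novel_circ_0022446 was below 0.05 without NC replicate 2, so the count of 0 rested on that library.

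In HT+EA against NC, novel_circ_0022446 was lower in HT+EA by a log2 fold change of -0.70 (SE 0.28, 95% interval -1.31 to -0.10), although the groups overlapped, with HT+EA lower in 7 of the 9 pairs of libraries. Its unadjusted p was below 0.05, but it did not pass the adjustment (edgeR, adjusted p = 0.9997). The value was -0.38 without NC replicate 2 and -0.49 without HT+EA replicate 3, and in both cases its unadjusted p was above 0.05. That p was also above 0.05 when only HT+EA and NC were fitted. For novel_circ_0009704 the value was -0.43 (SE 0.22, interval -0.91 to 0.06, edgeR adjusted p = 0.9997), with all HT+EA libraries below all NC libraries, at 663 CPM or less against 695 CPM or more. That gap lay inside the counting interval of HT+EA replicate 1, 552 to 791 CPM. The value of novel_circ_0009704 is taken up again next. The unadjusted p of novel_circ_0009704 was above 0.05, and below it without HT replicate 3 or HT+EA replicate 1. For novel_circ_0021522 it was -0.14 (SE 0.71, interval -1.67 to 1.39), and without HT+EA replicate 2 it was -1.79 with an unadjusted p below 0.05. Groups did not overlap for 1 of the 3, beside 9.88% of tested circRNAs, and 1 had an unadjusted p below 0.05, beside 2.48%.

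In HT+SEA against NC, novel_circ_0021522 had a log2 fold change of -2.32 (SE 0.85, 95% interval -4.15 to -0.49), with all HT+SEA libraries, at 31.8 CPM or less, below all NC libraries, at 45.4 CPM or more. With 5 to 7 counts in each HT+SEA library and 10 counts in NC replicate 3, counting error was large here, and the interval of that NC library, 21.8 to 83.5 CPM, covered all 3 HT+SEA values. The unadjusted p was below 0.05, but the value did not pass the adjustment (edgeR, adjusted p = 0.9995), and without NC replicate 2 it was -1.98 and its unadjusted p was above 0.05. It was 0.31 (SE 0.28, interval -0.29 to 0.91) for novel_circ_0022446, moving to 0.06 without NC replicate 3 and to 0.63, with an unadjusted p below 0.05, without NC replicate 2. It was 0.48 (SE 0.22, interval -0.00 to 0.96) for novel_circ_0009704, higher in HT+SEA in 8 of 9 pairs of libraries. Its unadjusted p was above 0.05, and below it without NC replicate 3, HT replicate 3 or HT+SEA replicate 3. Groups did not overlap for 1 of the 3, beside 9.43% of tested circRNAs, and 1 had an unadjusted p below 0.05, beside 2.96%.

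In all of these contrasts 0 of 4838 circRNAs passed an adjusted p of 0.05 with edgeR, and the smallest adjusted p was 0.997 or higher in each. With DESeq2 on the same circRNAs 0 to 4 passed in a contrast and none of the 3 passed in a comparison with NC. The numbers at an unadjusted edgeR p below 0.05 were 165 in HT against NC, 120 in HT+EA against NC, 143 in HT+SEA against NC, 231 in HT+EA against HT, 159 in HT+SEA against HT and 188 in HT+EA against HT+SEA.

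**Figure D2:**
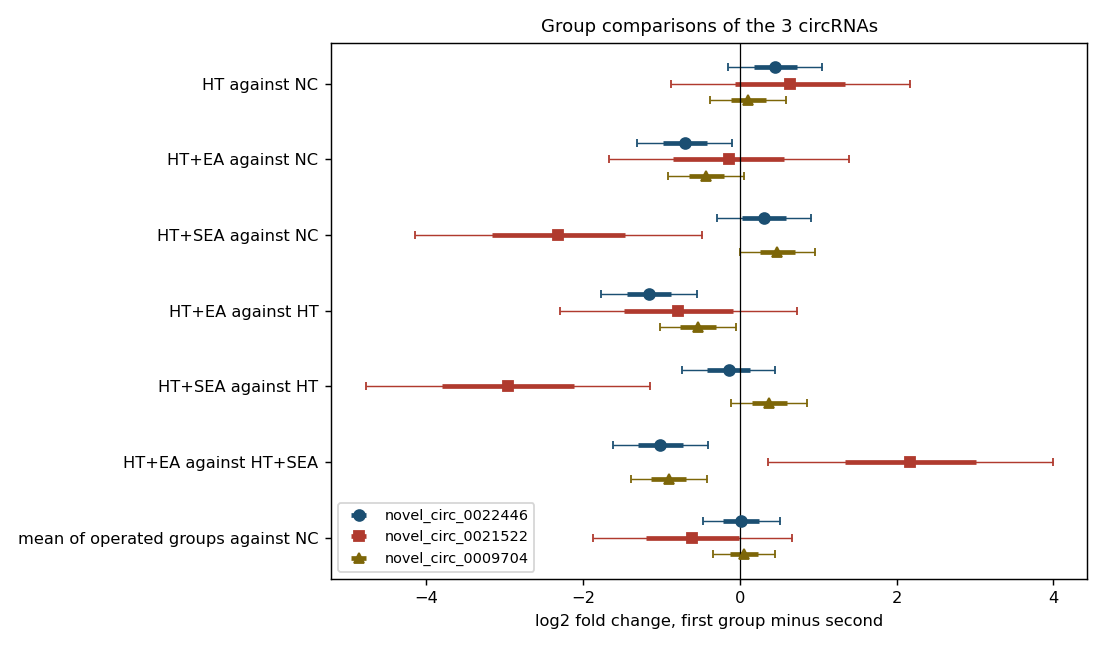
Log2 fold change of the 3 circRNAs in the 6 pairwise comparisons and in the operated mean (all 3 operated groups) against NC, as the first group minus the second; symbols are estimates from 1 edgeR fit of 12 libraries, thick bars are 1 SE and thin bars are 95% intervals. The intervals of novel_circ_0021522 are the widest, and all 3 intervals of the operated mean against NC include 0.

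The precision of the 3 circRNAs differed. Over the 12 libraries novel_circ_0009704 had 1828 counts, novel_circ_0022446 had 1121 and novel_circ_0021522 had 357. The biological coefficient of variation that edgeR fitted was 21.0% for novel_circ_0009704, 24.5% for novel_circ_0022446 and 61.4% for novel_circ_0021522, beside a median of 29.4% over the tested circRNAs. From the lowest to the highest library the level differed 2.48-fold, 3.52-fold and 11.4-fold in that order. novel_circ_0021522 was thus more variable between libraries than the median tested circRNA, and the other two less.

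In 2 groups the spread between libraries was smaller than the counts themselves would give. The SD of novel_circ_0022446 in HT was 1.97% of the mean, beside a counting error of 9.89%. The SD of novel_circ_0021522 in HT+SEA was 4.32% of the mean, beside a counting error of 42.4%, and the 95% intervals of its libraries reached from 9.57 to 74.3 CPM. The near equality of those libraries therefore says little about how much the animals varied, and edgeR's shared estimate of spread was used in their place. In the other 10 combinations of a circRNA and a group the spread was above the counting error, up to 116% of the mean for novel_circ_0021522 in HT+EA.

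**Figure D3:**
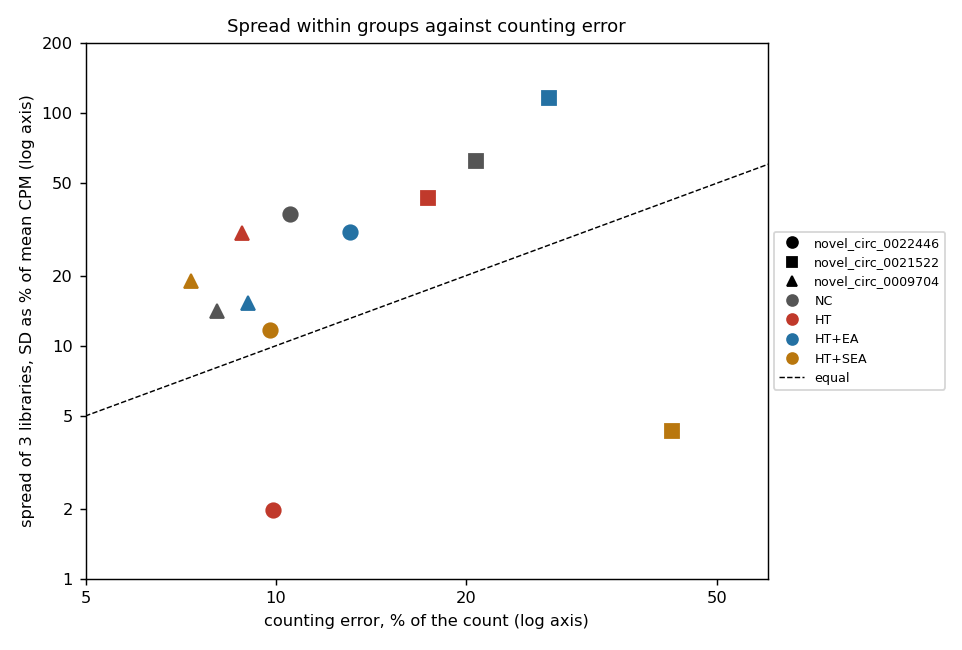
SD of the 3 libraries of a group as a percentage of the mean CPM, against the counting error as a percentage of the count, both on log axes; shape marks the circRNA, colour the group, and the dashed line equality. The points for novel_circ_0022446 in HT (1.97% against 9.89%) and novel_circ_0021522 in HT+SEA (4.32% against 42.4%) lie below the line and the other 10 above it.

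Across the 12 libraries the correlation of log2 CPM with the log2 total count was -0.42 for novel_circ_0022446, -0.44 for novel_circ_0009704 and 0.23 for novel_circ_0021522 (Pearson r, n = 12, a description across libraries of 4 groups), with Spearman's rho at -0.43, -0.18 and 0.27. Without HT replicate 3 Pearson r was -0.36, -0.26 and 0.37 and rho was -0.41, -0.02 and 0.35 in the same order (n = 11), a setting chosen after seeing the data. The part of depth in the group values was not tested.

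**Figure D4:**
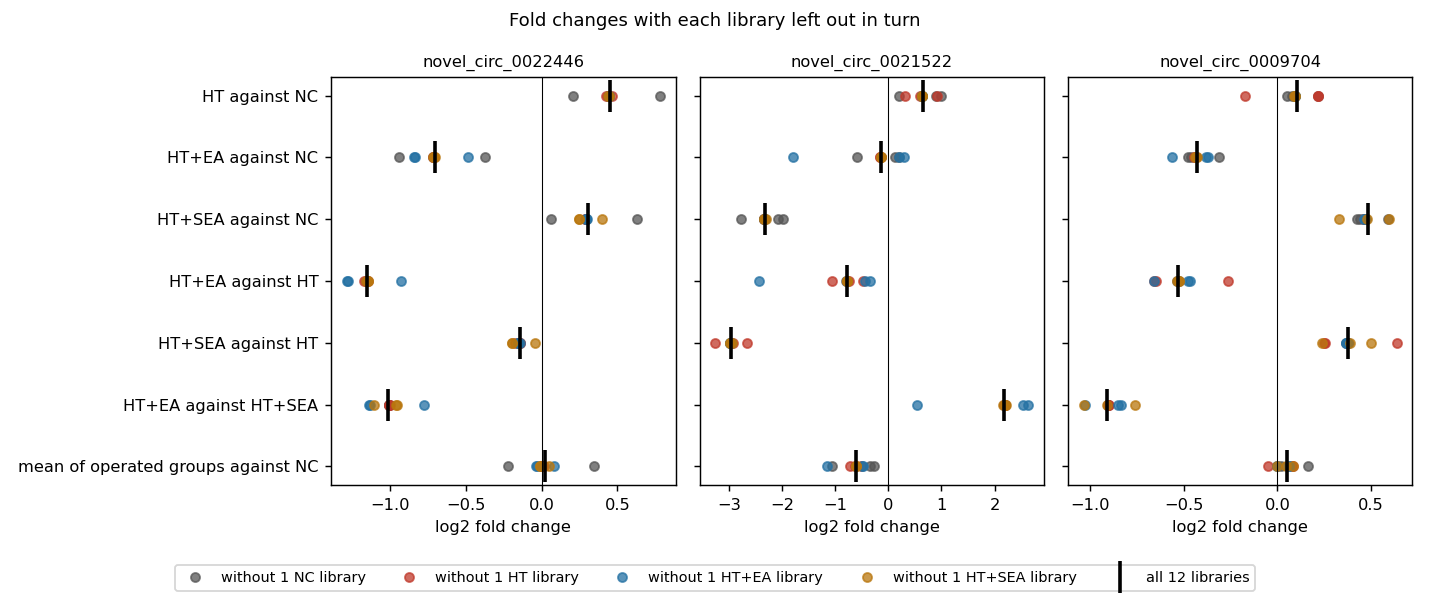
Log2 fold change of each circRNA in each comparison with 1 library left out in turn (points, coloured by the group of the missing library) and with all 12 libraries (vertical marks). For novel_circ_0021522 the point without HT+EA replicate 2 lies far from the others in HT+EA against NC (-1.79), HT+EA against HT (-2.43) and HT+EA against HT+SEA (0.53).

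The 3 circRNAs did not share a profile. Over the 12 libraries the Pearson r of log2 CPM was 0.51 between novel_circ_0022446 and novel_circ_0009704, 0.25 between novel_circ_0022446 and novel_circ_0021522 and -0.49 between novel_circ_0021522 and novel_circ_0009704. Spearman's rho was 0.25, 0.30 and -0.51 in the same order. The first pair had its lowest mean in HT+EA, whereas novel_circ_0021522 had its lowest mean in HT+SEA, where novel_circ_0009704 had its highest.

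The circRNAs whose profiles were most like each of the 3 were named by the highest Pearson r of log2 CPM over the 12 libraries, among the 3677 tested circRNAs with counts in all of them, as a description. As they were picked by likeness, group means ordered like those of the 3 follow from this choice and support no difference between groups. For novel_circ_0022446 the most similar were novel_circ_0032147 (r = 0.89, Spearman's rho 0.76), novel_circ_0030991 (r = 0.89, rho 0.72) and novel_circ_0035020 (r = 0.86, rho 0.66). HT+EA replicate 3 was the lowest library in all of these profiles and in that of novel_circ_0022446. The 3 similar circRNAs had their lowest means in HT+EA, at 147 ± 26.9, 71.4 ± 49.7 and 46.5 ± 24.3 CPM (SD, n = 3) in the order named, beside 204 ± 23.8, 205 ± 90.9 and 90.7 ± 13.7 CPM (SD, n = 3) in HT. Without HT replicate 3 their HT means were 200.7, 152.5 and 87.1 CPM (n = 2).

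For novel_circ_0009704 the most similar were novel_circ_0016140 (r = 0.91, Spearman's rho 0.87), novel_circ_0009702 (r = 0.83, rho 0.84) and novel_circ_0019597 (r = 0.82, rho 0.74). The level of novel_circ_0016140 was 312 ± 45.7 CPM (SD, n = 3) in HT+SEA and 158 ± 51.9 CPM (SD, n = 3) in HT+EA. novel_circ_0009702 was at 654 ± 132 CPM (SD, n = 3) in HT+SEA, 514 ± 173 in HT, 424 ± 18.4 in NC and 317 ± 47.9 in HT+EA. Its order of groups was that of novel_circ_0009704 with all 12 libraries. Without HT replicate 3 its HT mean was 453 CPM (n = 2), still above NC, unlike that of novel_circ_0009704, and r was 0.80.

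For novel_circ_0021522 the most similar profiles were those of novel_circ_0015373 (r = 0.85, Spearman's rho 0.72), novel_circ_0012883 (r = 0.84, rho 0.79) and novel_circ_0034924 (r = 0.77, rho 0.77). All had their lowest mean in HT+SEA, but their range was narrow, as for novel_circ_0015373 with 189.9 ± 16.4 CPM (SD, n = 3) in HT+SEA and 268 ± 1.24 CPM (SD, n = 3) in HT.

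**Figure D5:**
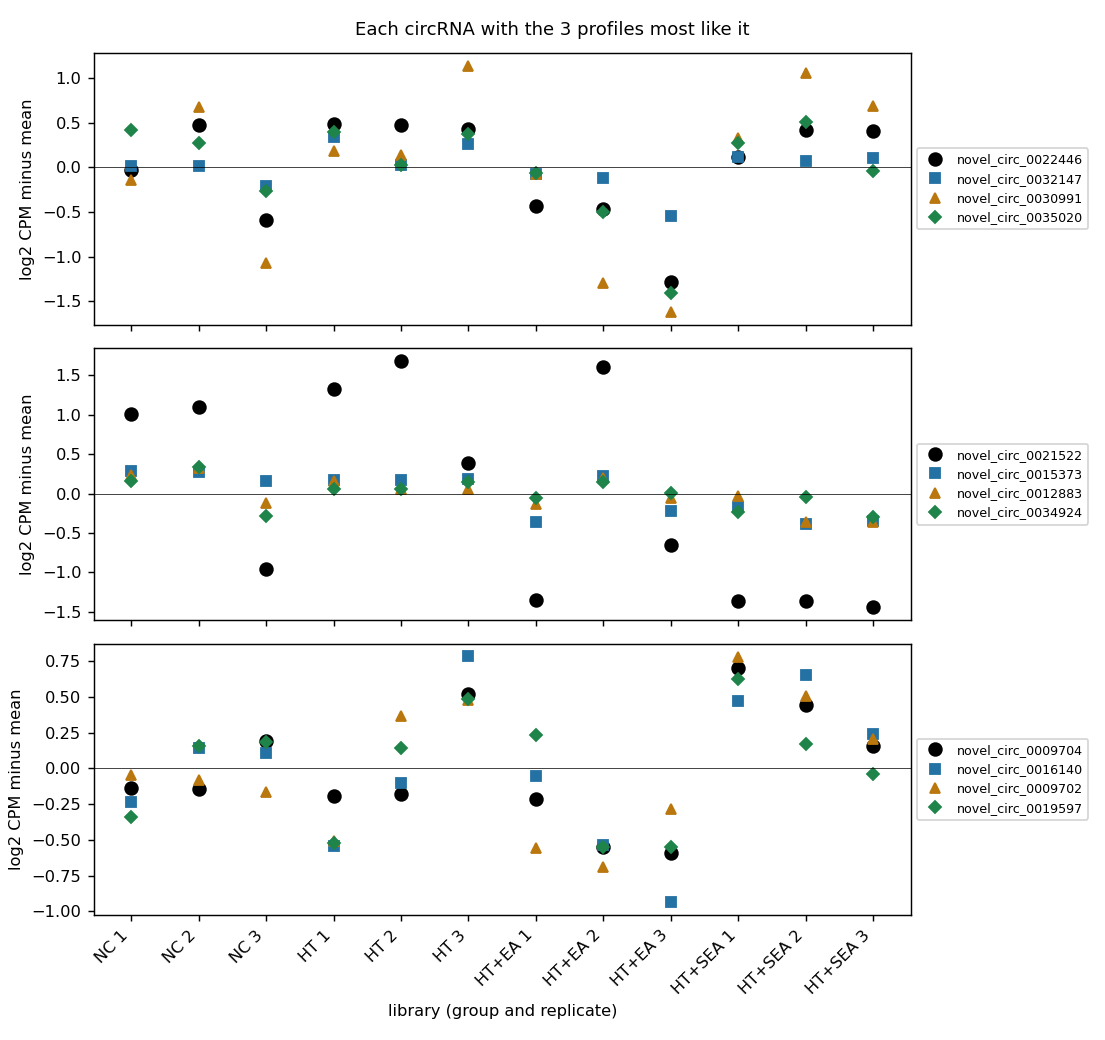
Log2 CPM of each circRNA (black) and of the 3 circRNAs with the highest Pearson r with it (coloured), each minus its own mean over 12 libraries, by group and replicate. In the middle panel the coloured points stay near 0 while most of those of novel_circ_0021522 lie far above or below it.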

How the data were processed

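The authors built strand-specific libraries from total RNA and sequenced them on Illumina HiSeq instruments. HISAT2 and featureCounts were listed in the methods with mRatBN7.2, a rat assembly, while the submitters' processing notes named GRCh38 and hg38. Which program called circRNAs is not given in the sources used here. Raw circRNA read counts per library were deposited by the authors, neither normalised nor pooled, with 12 further columns of TPM, unused because their names did not match the labels. The table held no value of 1.

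Groups came from the sample labels. The 3 circRNAs, the tests and the alternatives were chosen with earlier results of these data known. Counts were fitted with edgeR 4.0.16 (R 4.3.3; glmQLFit, glmQLFTest, TMM; 4 groups in 1 fit of 12 libraries), after filterByExpr (minimum count 10, minimum total 15) left 4838 circRNAs with 85.5% to 88.6% of each library's counts. The common biological coefficient of variation was 34.6%. The SE was derived from the F statistic. Profiles used log2 CPM with a prior count of 2. Intervals per library are 95% Clopper-Pearson and cover counting error only, since no molecular identifiers were described. Named circRNAs are the 3, the 3 most correlated with each, and those next to each in the order of p. Alternatives were DESeq2 1.42.0, limma-voom (limma 3.58.1), a robust fit, other scalings and filters, only the groups compared, each library left out, and the replicate number as a block. The scripts were tested on simulated data. Within groups libraries differed beyond sampling noise (chi-square per degree of freedom 2.71 to 4.22), so none was a copy.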

Additional observations from a re-analysis of the deposited data

How the results depend on the processing

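Leaving out libraries aside, 205 of 205 alternatives of the member comparisons kept the direction. They refit the same counts and include the comparisons between operated groups that picked the circRNAs, so nothing is read from this count. Of 260 tested alternatives 1 passed an adjusted p of 0.05. This was novel_circ_0021522 in HT+SEA against NC with no filter on low counts, at -2.33 with an edgeR adjusted p of 0.00208 (range over its alternatives 0.00208 to 1, unadjusted p below 0.05 in 19 of 21), and the cause was not tested. Its unadjusted p was 0.234 with limma-voom. For novel_circ_0022446 in HT+EA against NC the unadjusted p was below 0.05 in 19 of 22 alternatives, and for novel_circ_0009704 in HT+SEA against NC in 11 of 22.

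With 1 library left out in turn, novel_circ_0021522 ranged from -1.79 (without HT+EA replicate 2) to 0.30 (without HT+EA replicate 1) in HT+EA against NC. Without the same libraries HT+EA against HT ranged from -2.43 to -0.34, and HT+EA against HT+SEA from 0.53 to 2.64. In the mean of operated groups against NC, novel_circ_0022446 ranged from -0.22 (without NC replicate 3) to 0.34 (without NC replicate 2), novel_circ_0009704 from -0.0493 (without HT replicate 3) to 0.16 (without NC replicate 3), and novel_circ_0021522 from -1.16 (without HT+EA replicate 2) to -0.27 (without NC replicate 2). In HT against NC, novel_circ_0009704 ranged from -0.17 (without HT replicate 3) to 0.22 (without NC replicate 3).

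The number of circRNAs at an unadjusted p below 0.05 depended on the tool and filter. With no filter it was 620 in HT against NC, 469 in HT+EA against NC, 529 in HT+SEA against NC, 661 in HT+EA against HT, 595 in HT+SEA against HT, then 534 between HT+EA and HT+SEA, and 1035 for the operated mean against NC, of which 13 to 36 passed the adjustment. With DESeq2 it was 108, 65, 99, 143, 104, 119 and 78 in the same order. Limma-voom gave 236 in HT+EA against NC and 258 in the operated mean, and a fit of only the groups compared gave 83 in HT against NC. Leaving out HT replicate 2 gave 274 for HT against NC, 257 for HT+SEA against HT, and leaving out NC replicate 2 gave 219 in HT+SEA against NC.

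Same-numbered libraries did not deviate together (correlations -0.09 to 0.10, 1 of 18 above 0.1), so the numbers were taken as names only. With the replicate block novel_circ_0022446 in HT+EA against NC was -0.70, 96 to 199 circRNAs had an unadjusted p below 0.05 in a contrast, and 0 passed the adjustment. novel_circ_0021522 did not pass the filter when only HT+SEA and NC or only HT+EA and HT+SEA were fitted, so it has no value there, and that alternative was not run for the operated mean. With 5 to 16 counts in 7 libraries, depth limits novel_circ_0021522 most.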

Other observations

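Identifiers close to those of the 3 circRNAs were looked up in the table, with what their order stands for not given. Of the circRNAs up to 5 identifiers from novel_circ_0009704, novel_circ_0009703 was at 185 ± 50.3 CPM in NC, 165 ± 57.4 in HT, 136 ± 38.8 in HT+EA and 286 ± 71.4 in HT+SEA (SD, n = 3), with its highest mean in HT+SEA and its lowest in HT+EA as for novel_circ_0009704 (Pearson r = 0.65 over 12 libraries). The neighbour novel_circ_0009702 had r = 0.83. The other 3 tested neighbours were not alike, with r = 0.14 for novel_circ_0009700, -0.06 for novel_circ_0009706 and -0.01 for novel_circ_0009707. The level of novel_circ_0009707 was 0 in all HT libraries, but its spread was also very wide in the other groups. It was 1227 ± 1074 CPM in NC, 1246 ± 1080 in HT+EA and 577 ± 1000 in HT+SEA (SD, n = 3), so the zeros in HT are not read as particular to HT. Over the tested circRNAs with counts in all libraries, 931 pairs with identifiers at most 2 apart had a median r of 0.10, beside -0.00156 over all 6758326 pairs. Near novel_circ_0021522 the only tested circRNA, novel_circ_0021524, had r = -0.03, with 1119 ± 120 CPM (SD, n = 3) in HT+SEA and 1274 ± 62.4 CPM (SD, n = 3) in HT. Near novel_circ_0022446 no identifier passed the filter. These relations describe 12 libraries of 4 groups and carry no test.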
